A study of Homo sapiens with 17 samples.

Results

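The 10 genes examined belong to the pluripotency network of human embryonic stem cells, out of the 20037 protein-coding genes of the RefSeq table. They were given by name and not chosen by a measured value: the transcription factors POU5F1, NANOG, SOX2, SALL4, PRDM14 and MYCN, the RNA-binding proteins LIN28A and LIN28B, the chromatin protein DPPA4, and L1TD1, an RNA-binding protein derived from a transposable element. For each gene every summit from 20 kb below its lower coordinate to 20 kb above its upper coordinate was taken from all 17 libraries. A summit is the base of highest signal of a called peak, and coordinates are GRCh38.

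CUT&Tag, which tags DNA beside an antibody-bound chromatin feature, was done on H1, an established line of human embryonic stem cells, grown in mTeSR1 on Matrigel. Cells were infected with virus carrying shHNRNPU#1 or shHNRNPU#2, hairpins against the nuclear RNA-binding protein HNRNPU, or shLUC, a hairpin against luciferase that served as the control, and all of these were selected with puromycin. H3K4me1 and H3K27ac were each profiled in 4 shHNRNPU libraries (2 repeats per hairpin) and 2 shLUC libraries, POLIIS2P in 1 shHNRNPU#1 and 2 shLUC libraries, and HNRNPU in 2 libraries of untransfected cells that received no hairpin. The lists held 147145 to 214333 summits for H3K4me1, 40487 to 90914 for H3K27ac, 79949 to 87456 for POLIIS2P and 34649 to 35526 for HNRNPU, and read depth is unknown. The comparison asks whether chromatin marks differ when HNRNPU is targeted. No deposited value measured how far HNRNPU was lowered, so the knockdown could not be checked at the targeted gene, and a single cell line stands behind every library.

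The names of the 4 shLUC histone libraries conflict. The libraries titled H3K4me1 shLUC hold peaks named H3K27ac, and those titled H3K27ac shLUC hold peaks named H3K4me1. At the 10 genes the libraries with H3K4me1 peak names held 119 and 132 summits and shared 70.5% to 81.9% of summits with the shHNRNPU H3K4me1 libraries but 31.2% to 47.5% with the shHNRNPU H3K27ac libraries. Those with H3K27ac peak names held 35 and 49 summits and shared 42.7% to 60.7% with H3K27ac and 29.4% to 40.7% with H3K4me1. Antibodies below follow the peak names. For the 10 genes, the counts of genes without overlap, the differences of those genes and the counts of sites limited to a condition are also given by title. Comparisons at single sites and those of the further gene lists are given by peak name only. The antibody list of the protocol names HNRNPU and H3K27ac but neither H3K4me1 nor POLIIS2P, so these names rest on the labels alone.

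POU5F1 (also called OCT4), SOX2 and NANOG bind jointly at enhancers and promoters of each other and of many further genes, and this circuit keeps embryonic stem cells undifferentiated. H3K4me1 marks enhancers, both poised and active, while H3K27ac marks active enhancers and promoters. The name POLIIS2P is usually given to RNA polymerase II phosphorylated on serine of its tail during elongation, a form that accumulates toward the 3′ ends of transcribed genes.

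RefSeq's promoter table (GRCh38.p14) held 7 start sites of 6 of the genes, NANOG, SOX2, LIN28B, DPPA4, L1TD1 and MYCN. The 250 bases before the start are shown for 3 genes, chosen after their values were seen: NANOG, whose promoter held H3K4me1 without H3K27ac, SOX2, with H3K27ac past its start, and L1TD1, where all 4 antibodies had summits. All are on the plus strand and read 5′ to 3′. Capitals mark matches on either strand to the octamer core ATGCAAA read by POU factors, the SOX core ACAATG and the GC box GGGCGG.
NANOG, chr12:7789152-7789401: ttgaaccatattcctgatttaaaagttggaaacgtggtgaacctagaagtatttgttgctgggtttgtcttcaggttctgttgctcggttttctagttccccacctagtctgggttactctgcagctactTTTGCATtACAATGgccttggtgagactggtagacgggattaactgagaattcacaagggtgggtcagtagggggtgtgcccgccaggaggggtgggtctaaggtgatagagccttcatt
SOX2, chr3:181711675-181711924: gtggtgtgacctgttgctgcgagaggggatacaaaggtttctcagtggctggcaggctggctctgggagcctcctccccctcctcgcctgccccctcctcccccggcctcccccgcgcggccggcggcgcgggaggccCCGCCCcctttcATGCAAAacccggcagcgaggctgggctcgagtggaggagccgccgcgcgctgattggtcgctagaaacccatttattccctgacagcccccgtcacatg
L1TD1, chr1:62194599-62194848: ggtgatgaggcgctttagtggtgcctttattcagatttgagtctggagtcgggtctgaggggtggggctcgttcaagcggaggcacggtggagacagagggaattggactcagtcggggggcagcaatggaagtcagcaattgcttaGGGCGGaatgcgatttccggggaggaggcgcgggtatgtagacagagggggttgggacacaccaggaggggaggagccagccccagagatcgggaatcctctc

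In the NANOG promoter the octamer core and the SOX core stood 1 base apart, 120 to 107 bases before the start, and together formed the composite of SOX core, 1 base and octamer core, read on the minus strand. Of 35116 promoters of the same length, 3.94% held the octamer core, 9.29% the SOX core, 42.6% the GC box, and 2 promoters in all held the composite, which contains both cores. The SOX2 promoter held an octamer core 100 to 94 bases before the start and a GC box, and the L1TD1 promoter held a GC box only. A match is a description of the letters and not a binding site.

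Across the 10 genes, the marks fell into different orders by antibody. Values below are within-library percentiles, the share of a library's summits that score at or below the gene's highest-scoring summit. A gene without a summit in the window is given 0. H3K4me1 was high at nearly all of the genes, with a median of the gene means of 96.56 against 86.68 over all protein-coding genes, and 9 of 10 genes had 1 of the 20000 highest-scoring summits in every H3K4me1 library, against 34.2% of all genes. For H3K27ac the median was 84.79 against 75.34 and 7 of 10 genes met the same rank criterion, against 40.7%. A rank of 20000 reaches further down the shorter H3K27ac lists than the H3K4me1 lists. These counts are therefore to be set against all genes and not against each other. For POLIIS2P the median was 94.98 against 86.43, with 7 of 10 genes against 56.3%. The HNRNPU median, 76.16, lay close to the 74.04 of all genes. These are descriptions of a list named for its role in this cell type. The median window was 55.5 kb, against 64.1 kb over all genes, and 6 windows hold another protein-coding gene, whose summits cannot be told apart from those of the named gene.

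**Figure D1:**
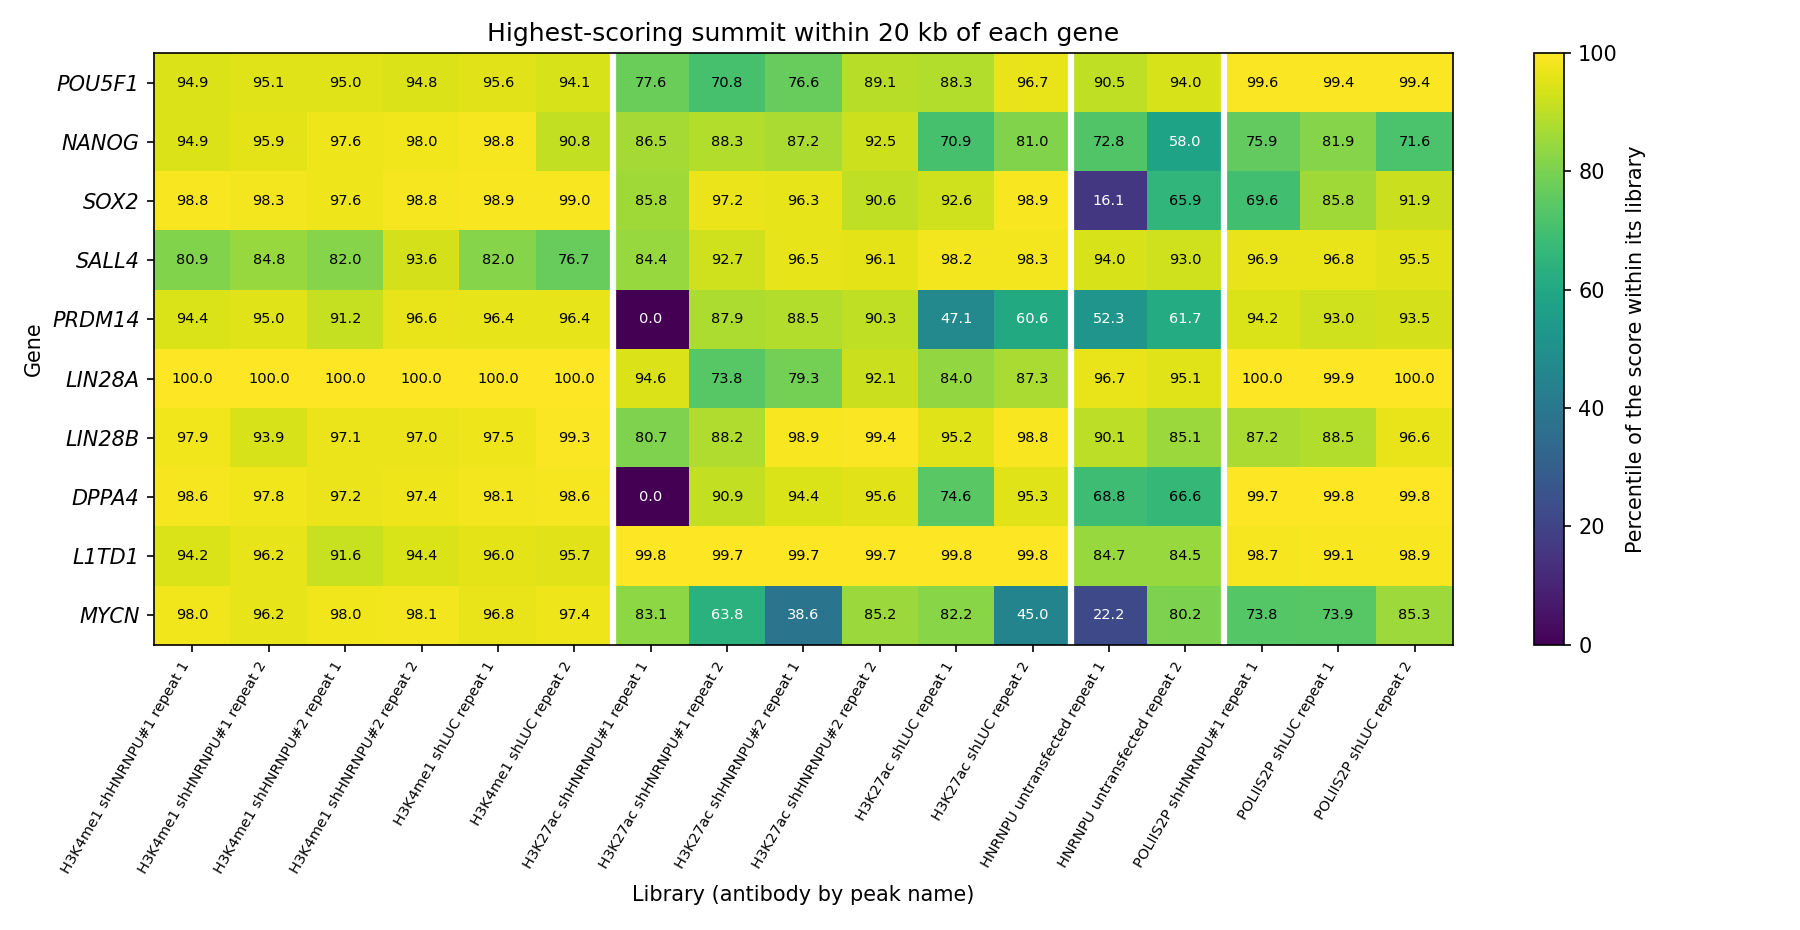
Percentile of the highest-scoring summit within 20 kb of each gene (rows) in each of the 17 libraries (columns, grouped by antibody as in the peak names), on a color scale from 0, no summit, to 100. LIN28A is at 99.96 or above in all 6 H3K4me1 libraries, L1TD1 at 99.66 or above in all 6 H3K27ac libraries, and PRDM14 and DPPA4 are at 0 in the H3K27ac library of shHNRNPU#1 repeat 1.

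Lists of other genes served as a check of the cell type. Of 30 other genes of the pluripotency network, 23 had a summit among the 20000 strongest in every H3K4me1 library and 17 in every H3K27ac library. The shares of all genes were 34.2% and 40.7%. Of 16 genes that mark endoderm, mesoderm, ectoderm or mesenchyme, 5 (31.2%) and 0 did so. The median of the gene means for H3K27ac was 8.71 in the lineage list and 85.97 in the network list, and 3 lineage genes had no H3K27ac summit in any library. The median over all genes was 75.34 for H3K27ac. For H3K4me1 the lineage list stood at 88.65 and the network list at 96.81, against 86.68 over all genes. The lineage list thus lay near all genes for H3K4me1 and below them for H3K27ac.

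In the POU5F1 window the strongest POLIIS2P signal lay outside the gene, on the side of its lower coordinate, which is its 3′ end. The tables used hold no strand for POU5F1, SALL4, PRDM14 and LIN28A, and their orientation is given here as background. The gene is annotated at chr6:31164337-31170682, and its window also holds CCHCR1, TCF19 and PSORS1C3. POLIIS2P reached 99.56 in the shHNRNPU#1 library and 99.42 and 99.41 in the shLUC libraries. The site highest on average lay 1.78 kb below the gene. No POLIIS2P summit fell inside POU5F1 in any of the 3 libraries, so these values cannot be given to POU5F1 alone.

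On the opposite side, where POU5F1 is transcribed from, a site of 1134 bp centered 2028 bases above the upper coordinate held summits of all 17 libraries. Only 1 other of 249 sites at the 10 genes did so, at L1TD1. The summits were spread over the POU5F1 site, those of HNRNPU over 1044 bp. The HNRNPU site shared by both repeats, 1362 bases above the gene, had H3K27ac within 500 bp in 1 of 6 libraries. Other HNRNPU summits, of both libraries, lay within 500 bp of the H3K27ac site found in all 6 libraries. The H3K27ac percentile of the site was 77.61 and 70.79 with shHNRNPU#1, 76.57 and 89.08 with shHNRNPU#2, and 82.81 and 96.69 with shLUC. The highest value was from shLUC and the lowest from shHNRNPU#1, and the groups overlapped. The strongest H3K4me1 site lay farther out, 13.4 kb above the gene, at 90.57 to 95.62 in the 6 libraries, and no H3K27ac library had a summit within 500 bp of it. POU5F1 has pseudogene copies and reads from them can be misplaced, and how reads with several matches were treated is not given in the sources used here.

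NANOG, a homeodomain factor, had its strongest H3K27ac summit near the end of the gene and none at its start. The gene lies at chr12:7789402-7799146. A single H3K27ac site, chr12:7797791-7797901, 8.45 kb past the start and inside the gene, was the strongest in its window in all 6 libraries. No H3K27ac summit lay within 1000 bp of the start in any library.

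At this NANOG site H3K27ac stood at 86.47 and 88.34 with shHNRNPU#1, at 87.22 and 92.49 with shHNRNPU#2, and at 70.86 and 81.04 with shLUC. All 4 shHNRNPU libraries were above both shLUC libraries. The means were 88.63 ± 2.68 (SD, n = 4) and 75.95 ± 7.19 (SD, n = 2), a difference of 12.68 percentile points (two-sided exact permutation test over 15 assignments, p = 0.0667, the smallest this design can give). With a window of 50 kb, where another summit was the highest in at least 1 library, the difference was -2.1 and the groups overlapped. Without shLUC replicate 1 it was 7.6. H3K4me1 at the same site, examined after the H3K27ac values were seen, stood at 92.48, 93.63, 94.88 and 89.11 with shHNRNPU and 80.53 and 86.13 with shLUC. The shHNRNPU values were the higher ones without overlap, at a site that was not the highest H3K4me1 site of the window. Of the 63 H3K4me1 sites found in all 6 libraries at the 10 genes, this was 1 of 4 that were higher without overlap, against 6.85% of such sites genome-wide, and 7 were lower, against 8.43%.

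The NANOG promoter shown above carried H3K4me1 without H3K27ac. All 6 H3K4me1 libraries had a summit there within a span of 12 bp, 55 to 67 bases before the start and so between the composite and the start. Their percentiles were 84.8, 86.29, 83.6 and 93.54 with shHNRNPU and 92.87 and 85.42 with shLUC, and the groups overlapped. HNRNPU had its only site at NANOG 1.65 kb upstream, at 72.81 and 58.02 in the 2 repeats. Within 500 bp of that site 4 of the 6 H3K27ac libraries had a summit, at 25.04 to 77.46. POLIIS2P was low, at 75.92 in the shHNRNPU#1 library and 81.87 and 71.56 with shLUC. Pseudogenes of NANOG share its sequence, so reads at its exons are uncertain.

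SOX2 is a gene with a single exon at chr3:181711925-181714436 inside the long noncoding gene SOX2-OT. It had H3K4me1 sites on both sides, and H3K27ac within it and on both sides. Between 12 and 20 H3K4me1 summits lay in the window per library and none of them inside SOX2 itself. H3K27ac had a site within the gene, 1.14 kb past its start, in all 6 libraries, at 85.85 and 97.22 with shHNRNPU#1, 96.35 and 75.69 with shHNRNPU#2 and 79.55 and 98.91 with shLUC. The groups overlapped, and the spread within each condition was wide.

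The highest H3K4me1 percentile at SOX2 was 98.84 and 98.31 with shHNRNPU#1, 97.64 and 98.75 with shHNRNPU#2, and 98.86 and 98.97 with shLUC. The shHNRNPU libraries all fell below both shLUC libraries, with a mean difference of -0.53 (two-sided exact permutation test, p = 0.2). The difference was -0.28 without shHNRNPU#2 replicate 1, and by log10 rank the groups overlapped. With a window of 5 kb all shHNRNPU libraries were higher, by 4.97. The order did not hold at any site that was the highest of a library. At the site 9.69 kb upstream the first shLUC repeat was at 97.95, inside the shHNRNPU range. Its own highest summit was a different one, 10.4 kb past the SOX2 start, where the groups overlapped too. The second repeat of shHNRNPU#2 had its highest summit at a site 7566 bases past the start. There the shHNRNPU libraries were at 88.52, 87.49, 97.22 and 98.75 and shLUC at 95.94 and 96.87, and the groups overlapped. At a weaker site, 8624 bases past the start, the shHNRNPU libraries were at 48.61, 54.76, 48.92 and 51.52, below the shLUC values of 72.33 and 83.57. At another, upstream of the gene, they were above both shLUC libraries. The H3K4me1 sites 9.69 kb upstream and 10.4 kb past the start had no H3K27ac summit within 500 bp in any library. The site 7566 bases past the start had one in all 6 H3K27ac libraries. SOX2 was the single gene of the 10 with no HNRNPU site shared by both repeats.

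**Figure D2:**
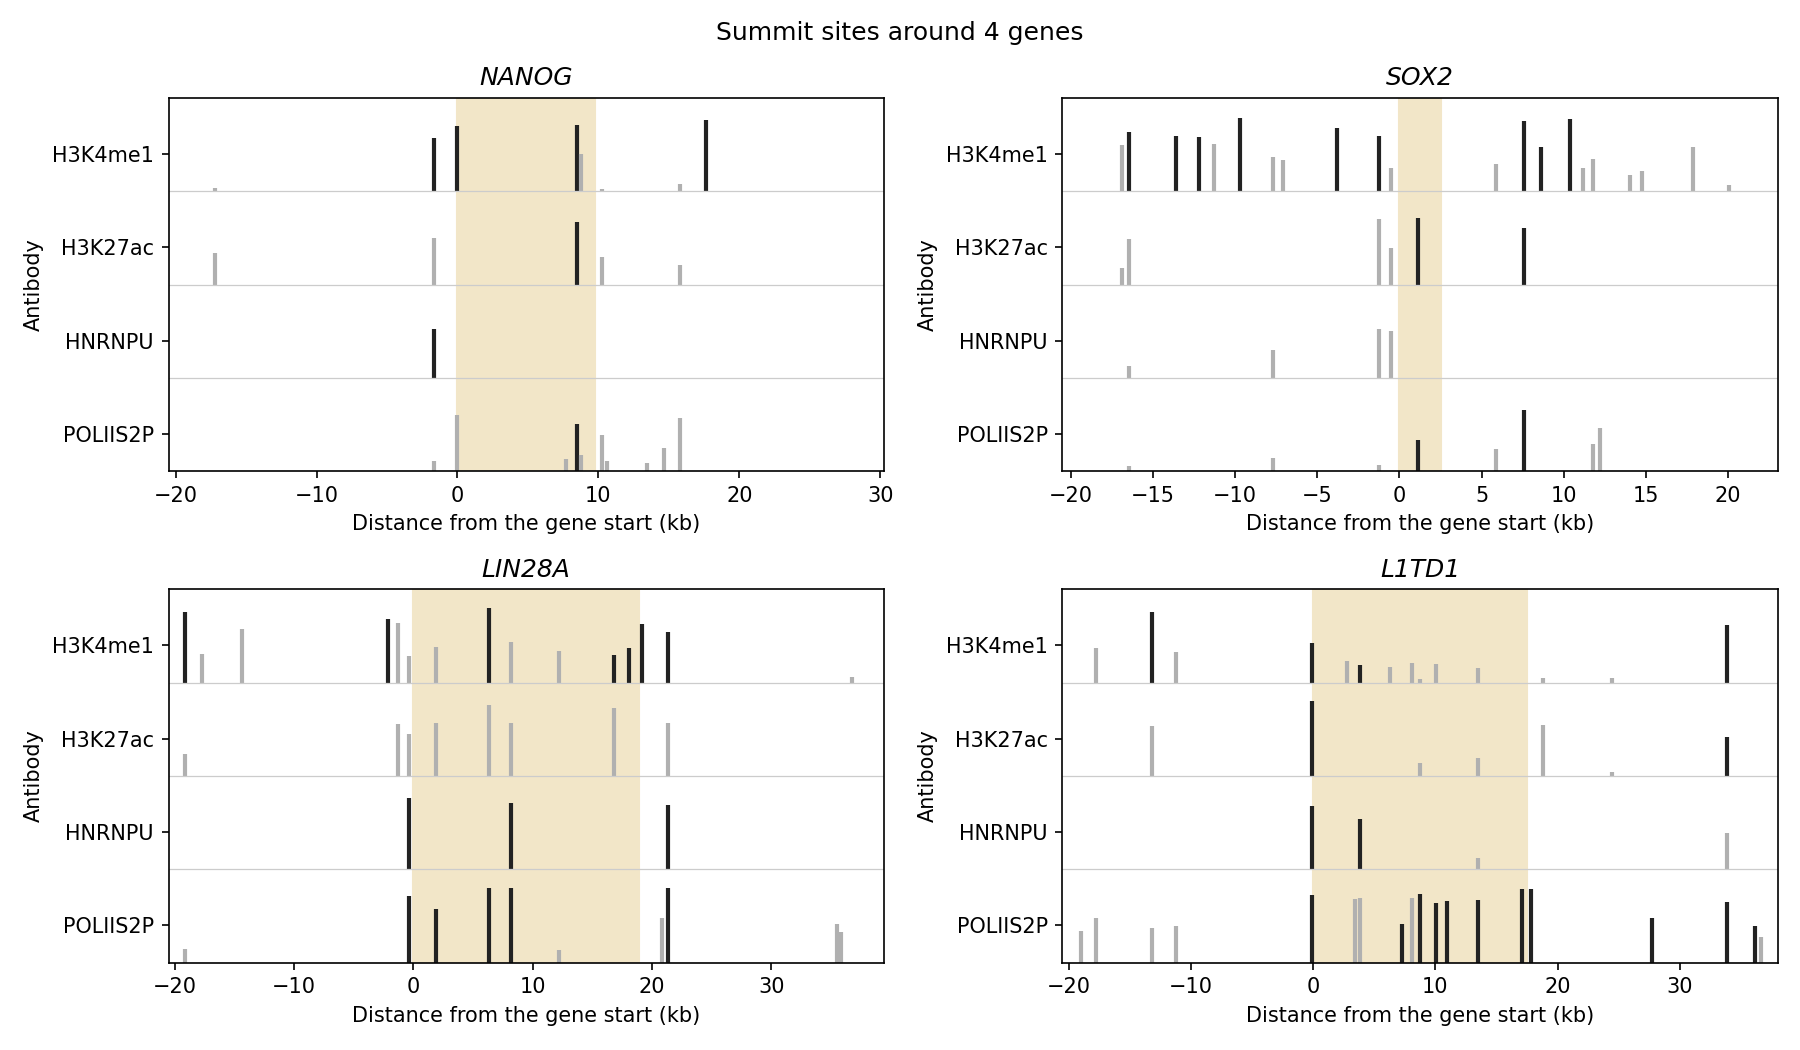
Summit sites of the 4 antibodies at NANOG, SOX2, LIN28A and L1TD1 by distance in kb from the gene's lower coordinate, where all 4 genes start, with the gene shaded. The height of a line is the mean percentile over the libraries with a summit there (a percentile of 100 ends just under the next lane), black lines are sites found in every library of the antibody and gray lines are sites missing from at least 1. The H3K27ac line at the L1TD1 start (mean 99.77) and the H3K4me1 line inside LIN28A (mean 99.98) nearly reach full height.

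SALL4, a zinc finger factor, and PRDM14, a PR domain factor, are regulators of the undifferentiated state. SALL4 lies at chr20:51782331-51802521 and is transcribed from its upper coordinate. HNRNPU (93.96 and 92.96), H3K27ac and POLIIS2P (95.51 to 96.86) all had their strongest site of the window inside SALL4 at the same place, 1.92 to 2.23 kb below that coordinate.

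H3K27ac at this SALL4 site was 84.44 and 92.67 with shHNRNPU#1, 96.48 and 96.07 with shHNRNPU#2 and 98.25 and 98.33 with shLUC. All shHNRNPU libraries were below both shLUC libraries, and the means were 92.42 ± 5.58 (SD, n = 4) and 98.29 ± 0.06 (SD, n = 2), a difference of -5.87 points (two-sided exact permutation test, p = 0.2). Without shHNRNPU#1 replicate 1 the difference was -3.21, and the hairpins taken alone gave -9.73 (shHNRNPU#1) and -2.01 (shHNRNPU#2). H3K4me1 was lowest at SALL4 among the 10 genes, with 76.71 to 93.63 over the 6 libraries. These values came from a site 15.08 kb below the gene, in a window shared with ATP9A.

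PRDM14 lies at chr8:70051651-70071252 and is transcribed from its upper coordinate. Its H3K27ac was at 0 and 87.88 with shHNRNPU#1, 88.55 and 90.28 with shHNRNPU#2 and 47.07 and 60.57 with shLUC. The shHNRNPU libraries other than the first repeat of shHNRNPU#1 were above both shLUC libraries, while that repeat had no summit in the window. The site highest on average lay 0.21 kb above the upper coordinate, in 4 of 6 libraries. H3K4me1 (91.18 to 96.63) and POLIIS2P at its highest site (92.76 to 94.22) had their strongest sites on average at the far end of the window, close to an HNRNPU site and 18.7 kb below the gene, where the 6 H3K4me1 summits fell within 4 bp of each other.

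LIN28A blocks maturation of the let-7 microRNAs, and its locus gave some of the strongest signals of the whole data set. The gene lies at chr1:26410817-26429728. Its H3K4me1 site at chr1:26417203-26417226, inside the gene 6.39 kb past the start, ranked 37 and 55 among all summits with shHNRNPU#1, 30 and 11 with shHNRNPU#2 and 22 and 25 with shLUC. The conditions overlapped. Over all protein-coding genes, 99.9% had a lower mean H3K4me1 percentile than LIN28A.

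POLIIS2P in the LIN28A window was 99.95 in the shHNRNPU#1 library and 99.93 and 99.95 with shLUC, at the same base in all 3, chr1:26432201. This base lies 2.47 kb past the 3′ end of LIN28A in a window shared with DHDDS, so the value cannot be given to LIN28A alone. Summits of H3K4me1 (6 libraries), H3K27ac (5) and HNRNPU (2) lay within 500 bp of the site. Inside LIN28A, a POLIIS2P site 8226 bases past the start stood at 99.53 to 99.72. HNRNPU was higher at LIN28A than at any other of the 10 genes, at 96.68 and 95.13, on a site within 336 bases upstream of the gene start. Of 2 further HNRNPU sites, 1 lay inside the gene and 1 beyond it, beside the POLIIS2P site past the 3′ end. H3K27ac did not follow these marks. Its highest summit fell at 4 different sites in the 6 libraries, with percentiles of 73.84 to 94.61, and the strong H3K4me1 site had an H3K27ac summit within 500 bp in 1 library.

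LIN28B, the paralog of LIN28A, is the longest of the genes (chr6:104937026-105083332) and has 2 start sites in the promoter table, at 104940965 and 104957107. Within 1000 bp of the first start H3K27ac was 74.73 and 76.85 with shHNRNPU#1, 96.81 and 97.22 with shHNRNPU#2 and 95.16 and 98.83 with shLUC. Around the second it was 80.68 and 3.58 with shHNRNPU#1, 98.92 and 99.36 with shHNRNPU#2 and 95.15 and 96.63 with shLUC. The shHNRNPU#1 libraries were the lowest around both starts, and the shHNRNPU#2 libraries were above shLUC around the second start and within its range at the first. Around the second start these were not the same position: the summits of shHNRNPU#2 and shLUC lay 848 to 856 bases before it, beside an H3K4me1 site, and those of shHNRNPU#1 lay 515 and 544 bases past it. At the site past the second start that all 6 libraries shared, H3K27ac was 80.68 and 3.58 with shHNRNPU#1, 80.93 and 75.65 with shHNRNPU#2 and 91.09 and 83.98 with shLUC. There the libraries of both hairpins were below shLUC. Of the 9 H3K27ac sites found in all 6 libraries at the 10 genes, 3 were lower without overlap, against 11.0% genome-wide, and 1 was higher, against 3.76%. The difference between the hairpins was not tested. HNRNPU had a site at the second start, at 88.84 and 85.1, and POLIIS2P within 1000 bp of it stood at 81.52 to 88.71. The strongest H3K4me1 site, 101 kb past the lower coordinate and inside the gene, was at 93.94 to 99.27.

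DPPA4 and L1TD1 are genes of early development with a narrow pattern of expression. At DPPA4 (chr3:109326144-109339636, minus strand) POLIIS2P reached 99.66 in the shHNRNPU#1 library and 99.76 and 99.81 with shLUC, 0.88 kb below the lower coordinate, which is the 3′ end. Its H3K27ac, H3K4me1 and HNRNPU sites lay together 9.6 to 9.7 kb below the gene, toward DPPA2, its neighbor and relative, so their values cannot be given to DPPA4 alone. H3K27ac there was at 0 and 90.93 with shHNRNPU#1, 94.43 and 95.62 with shHNRNPU#2 and 74.56 and 95.29 with shLUC. Only the first repeat of shHNRNPU#1 lacked the summit. No antibody had a summit within 1000 bp of the RefSeq start of DPPA4 at 109337546, which lies inside the annotated gene. Within 1000 bp of the upper coordinate, 5 of 6 H3K4me1 libraries had a summit, at 21.38 to 56.79, and no other antibody did.

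L1TD1 (chr1:62194849-62212328) had summits of all 4 antibodies around the promoter shown above, as did, in all or most libraries, the starts of LIN28A and LIN28B within 1000 bp. A site of 389 bp there held summits of all 17 libraries. HNRNPU summits lay at 62194783 and 62194808, inside the printed bases and downstream of its GC box, at 84.73 and 84.49. The H3K27ac summits fell 115 to 198 bases past the start and ranked 96, 105, 255 and 237 from the top with shHNRNPU and 100 and 133 with shLUC.

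H3K27ac at L1TD1 was 99.82 and 99.74 with shHNRNPU#1, 99.66 and 99.72 with shHNRNPU#2 and 99.84 and 99.85 with shLUC. The shHNRNPU libraries were all lower, with means of 99.74 ± 0.06 (SD, n = 4) and 99.85 ± 0.01 (SD, n = 2) and a difference of -0.11 points (two-sided exact permutation test, p = 0.133). By rank from the top, the groups overlapped. POLIIS2P was highest at the other end of L1TD1, at 98.69 with shHNRNPU#1 and 99.09 and 98.91 with shLUC. H3K4me1 at the promoter was modest, at 20.48 to 75.87, and its strongest site lay 13.1 kb upstream. L1TD1 derives from a LINE-1 element, so reads can match related copies.

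MYCN (chr2:15940550-15947004), a MYC family factor, was high in H3K4me1 and lower in the other antibodies. H3K4me1 stood at 97.96 and 96.17 with shHNRNPU#1, 97.98 and 98.06 with shHNRNPU#2 and 96.76 and 97.37 with shLUC, at a site 10.3 kb past the 3′ end in 5 of 6 libraries. H3K27ac was 83.13 and 63.76 with shHNRNPU#1, 38.59 and 85.15 with shHNRNPU#2 and 82.16 and 44.95 with shLUC, at several sites. HNRNPU was at 22.21 and 80.17 in its 2 repeats, so its place in the order of the genes is uncertain.

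Comparing the conditions over all 10 genes, groups that did not overlap were few. For H3K4me1, 1 of 10 genes (SOX2) was lower in all shHNRNPU libraries and none was higher, where 8.19% and 7.1% of 18872 genes with a summit were so. For H3K27ac, 2 of 10 (SALL4 and L1TD1) were lower and 1 (NANOG) was higher, where 11.4% and 2.07% of 18573 genes were so. These counts are given beside the background and nothing further is read from them. Without the shHNRNPU#1 library that lacked the PRDM14 and DPPA4 summits, 4 genes did not overlap for H3K27ac, PRDM14 being the added one, against 17.8% of all genes in either direction. None of the differences passed 0.05 and with 4 against 2 libraries none can. The median difference over the 10 genes was -0.27 points for H3K4me1 and -1.97 for H3K27ac, against -0.08 and -2.39 over all genes. The labels do not say that repeats are separate cultures, so the p-values measure only the spread between these libraries.

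**Figure D3:**
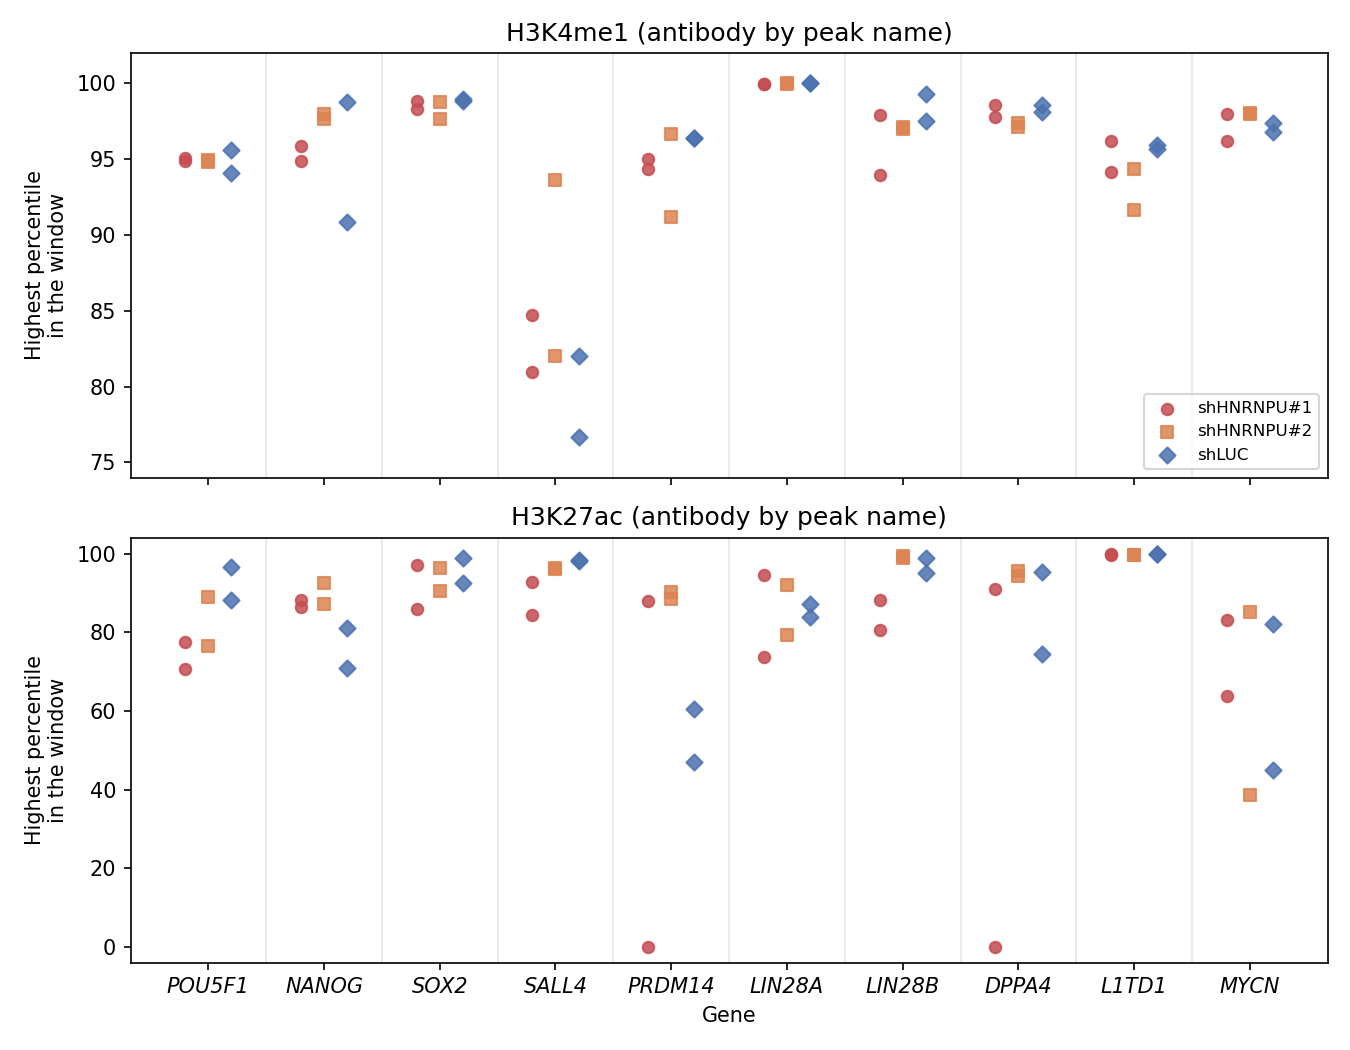
Highest H3K4me1 (upper panel) and H3K27ac (lower panel) percentile in the window of each gene, 1 point per library, for shHNRNPU#1 (circles), shHNRNPU#2 (squares) and shLUC (diamonds), with an upper panel axis that does not start at 0. The H3K27ac points of NANOG with shHNRNPU lie above both shLUC points and those of SALL4 below, and for most other genes the points of the conditions intermix.

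By sample title the picture was different. With the shLUC libraries assigned as titled, 2 of 10 genes were lower and 5 higher without overlap for H3K4me1, against 22.4% and 40.1% of all genes. For H3K27ac 6 were lower and 2 higher, against 44.3% and 15.3%. The difference at NANOG for H3K27ac became -6.16 points, at SALL4 13.06 and at L1TD1 3.94, and that at SOX2 for H3K4me1 became 2.62. All 4 changed sign.

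For POLIIS2P, with 1 shHNRNPU library and no test, 5 of 10 genes were below both shLUC libraries (SOX2, LIN28B, DPPA4, L1TD1 and MYCN) and 4 above (POU5F1, SALL4, PRDM14 and LIN28A), against 39.5% and 32.1% of all genes. The SOX2 window had the widest gap, 69.56 against 85.78 and 91.88 at a site 7.67 kb past the SOX2 start. That site lies 5.16 kb beyond the end of SOX2, in a window shared with SOX2-OT, so the value cannot be given to SOX2 alone. At the POLIIS2P site inside SOX2 the 3 libraries stood at 38.3 to 46.45. At LIN28A, POU5F1, DPPA4 and L1TD1 the gaps from the shLUC mean ran from -0.31 to 0.15 points. The shares of the 10 genes lay near those of all genes.

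Where strand was known, the highest summit of the window was placed by the nearer end of the gene. Such a summit can lie outside the gene, as at SOX2, where the POLIIS2P site lay 5.16 kb beyond it. For POLIIS2P the highest summit was nearer the 3′ end than the start in all 3 libraries in 3 of 6 genes (SOX2, DPPA4 and L1TD1), against 38.5% of 12606 genes. For H3K27ac this held in 1 of 5 genes, NANOG, against 18.1%. For H3K4me1 it held in 4 of 6 (NANOG, LIN28B, DPPA4 and MYCN), against 28.2%, and for HNRNPU in 2 of 6 (DPPA4 and MYCN), against 24.7%.

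Few H3K4me1 sites were limited to a condition. Chaining the summits of the 6 libraries at 250 bp gave 183 H3K4me1 sites at the 10 genes, of which 2 were found in both shLUC libraries and no shHNRNPU library, against 1.28% of sites genome-wide, and 2 in all shHNRNPU libraries and no shLUC library, against 0.577%. The first pair lay inside POU5F1 at chr6:31169986-31169989 (mean percentile 7.7) and 5.89 kb below LIN28B at chr6:104931124-104931143 (64.28). The second pair lay at the edge of the POU5F1 window at chr6:31190419-31190677 (52.08) and inside LIN28B at chr6:105072902-105072904 (33.69). All 4 were sites of low or middle score. Of 101 H3K27ac sites none was limited to a condition in this way, against 1.93% and 0.227% genome-wide.

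Many of the H3K4me1 sites found in all 6 libraries stood apart from H3K27ac. Of 63 such sites at the 10 genes, 26 (41.3%) had no H3K27ac summit within 500 bp in any library, close to the 42.8% of 78946 sites genome-wide, and 6 had one in all 6 H3K27ac libraries. The strongest H3K4me1 sites of POU5F1, NANOG and SOX2 belonged to the 26. Conversely, H3K27ac inside SOX2 and just past the second start of LIN28B had no H3K4me1 summit within 500 bp of its middle in any library, 2 of 9 sites, against 13.7% genome-wide.

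**Figure D4:**
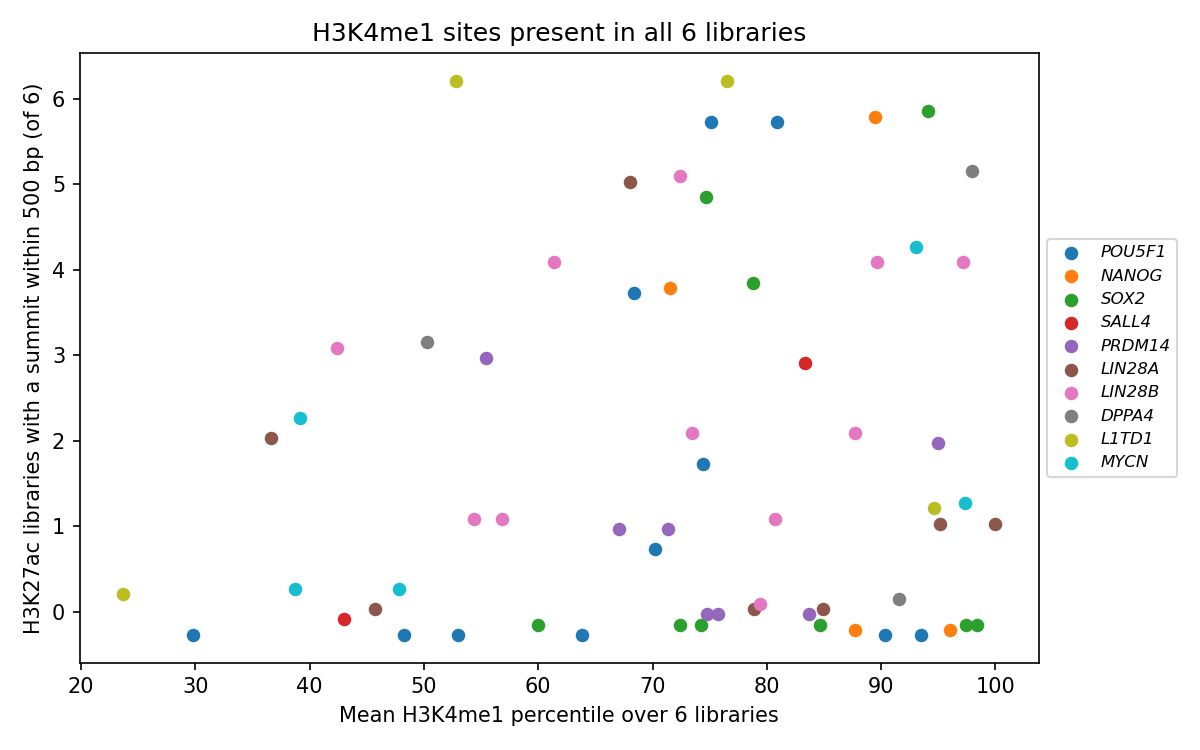
Each point is an H3K4me1 site present in all 6 libraries, placed by its mean percentile (horizontal axis) and by the number of the 6 H3K27ac libraries with a summit within 500 bp (vertical axis, points of a gene shifted slightly so that they do not hide each other). The 26 sites with no H3K27ac summit run from low to high percentiles, and the SOX2 site at 98.36 and the NANOG site at 96.0 are among them.

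HNRNPU sites, for which both repeats had a summit no more than 250 bp apart, were found at 9 of the 10 genes, against 70.0% of all protein-coding genes. There were 16 of them. All 6 H3K4me1 libraries had a summit within 500 bp at 9 of the 16, all 6 H3K27ac libraries at 4 and all 3 POLIIS2P libraries at 12, and over 17226 HNRNPU sites the shares were 66.0%, 32.8% and 64.2%. The 4 sites with H3K27ac in every library lay below POU5F1, inside SALL4, at the second start of LIN28B and at the start of L1TD1. The single site outside the series-wide list of HNRNPU intervals lay 1362 bases above POU5F1.

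Among the 30 network genes outside the 10, 3 were lower and 3 higher without overlap for H3K4me1, against 8.19% and 7.1% of all genes with a summit. For H3K27ac the counts were 0 and 1, against 11.4% and 2.07%. Among the 16 lineage genes the counts were 1 and 0 for H3K4me1, and 1 and 1 for H3K27ac. No gene of either list was separated for both histone antibodies.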

How the data were processed

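The authors deposited 1 summit list per library, with a score read as −log10 of a p-value or q-value because the layout is that of MACS summit files. The deposited scores start at 2.00 to 2.01 in the 12 histone lists and 1.30 in the 5 others, the levels of 0.01 and 0.05. The submitters' processing notes name cutadapt, Bowtie2, SAMtools, MACS2 and deepTools and hg38, without versions. A series-wide deposited list of 48095 HNRNPU intervals of 400 bp has a score of 0 throughout and gave positions only. Read depth is unknown, and summit numbers (34649 to 214333 per library) limit precision, since a percentile depends on how many weak peaks were called. No interval or floor is given for that reason.

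Scores were turned into within-library percentiles, and the highest in gene ± 20 kb (RefSeq, GRCh38.p14) was the value of a gene. Of the 30 network genes, TDGF1 was matched by an older symbol to CRIPTO. Conditions were compared by two-sided exact permutation tests of the mean difference and by whether groups overlapped, over all protein-coding genes with a summit. All 10 genes are named, with a selection of the highest sites per antibody and every site limited to a condition. From the further lists only counts are given. The genes and lists were chosen with earlier results of these data known. Python 3.11.15, numpy 2.4.6 and pandas 2.3.3 were used, and the steps were tested on simulated data. Alternatives were the titles' antibody names, windows of 5 and 50 kb, log10 ranks, the 20000 strongest summits, chaining at 500 bp, each hairpin alone, each library left out and a replicate block. Repeat numbers did not pair the libraries: deviations of same-numbered libraries correlated between -0.02 and 0.03 across genes.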

Additional observations from a re-analysis of the deposited data

Results flagged for a closer look

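In groups of 4 shHNRNPU libraries, 3 of 20 tested groups had a value far from the others by Dixon's ratio of gap to range, where chance gives about 1 in 20. That rate is for independent measured values, while the PRDM14 and DPPA4 flags rest on a 0 given for a missing summit in the same library. For PRDM14 H3K27ac the ratio was 0.973, with the first repeat of shHNRNPU#1 at 0 and the others at 87.88 to 90.28. For DPPA4 H3K27ac it was 0.951, with the same library at 0 and the others at 90.93 to 95.62. That library listed 51655 H3K27ac summits, against 40487 in the second repeat of shHNRNPU#1, which had both sites, and the part of list length in this was not tested. For MYCN H3K4me1 the ratio was 0.948, with the second repeat of shHNRNPU#1 at 96.17 and the others at 97.96 to 98.06. The value of 96.17 came from a different summit. At the site where the others were highest, this library stood at 95.77.

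At LIN28B the highest H3K27ac summits of the hairpins lay on opposite sides of shLUC, at different positions. Both shHNRNPU#1 libraries (80.68 and 88.19) lay below and both shHNRNPU#2 libraries (98.92 and 99.36) above the shLUC values of 95.16 and 98.83, and the hairpin means differed by -14.71 points. At the site all 6 libraries shared, both hairpins were below shLUC (80.68, 3.58, 80.93 and 75.65 against 91.09 and 83.98). The difference between the hairpins was not tested.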

How the results depend on the processing

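Of the 10 genes, 1 did not overlap between conditions for H3K4me1, against 15.3% of all genes. The count was 7 with antibodies as titled (62.5% of all genes). By log10 rank it was 2 (18.0%), SALL4 and PRDM14, so SOX2 was no longer among them. By the number of summits among the 20000 strongest it was 0 (2.9%). The count was 3 with shHNRNPU#1 alone (42.0%) and 6 with shHNRNPU#2 alone (35.0%). With a library left out it was 1 to 5 (20.8% to 38.4%). It was 5 without shLUC replicate 1 and 4 without shHNRNPU#1 replicate 1. It was 3 without shLUC replicate 2, shHNRNPU#1 replicate 2 or shHNRNPU#2 replicate 2. For H3K27ac the count of 3 became 8 as titled, 1 by the number among the 20000 strongest, 5 with either hairpin alone (44.2% and 32.0% of all genes), and 3 to 5 with a library left out (17.8% to 40.5%), 5 without shLUC replicate 1. By log10 rank it stayed at 3, with POU5F1 in place of L1TD1. With windows of 5 or 50 kb the H3K4me1 count stayed at 1. POLIIS2P gave 9, then 4 by the number among the 20000 strongest and 10 without either shLUC repeat, where a single library on each side puts every gene with a summit apart by construction. Genes with an HNRNPU site stayed between 6 and 10. Sites of a single condition numbered 4 for H3K4me1, then 1 among the 20000 strongest summits, 48 as titled, 9 with either hairpin alone and 5 to 13 with a library left out (13 without shLUC replicate 1, 10 without shLUC replicate 2). For H3K27ac the 0 became 1 with chaining at 500 bp, 1 among the 20000 strongest, 52 as titled, 7 with shHNRNPU#1 alone, 6 with shHNRNPU#2 alone and 0 to 9 with a library left out (9 without shLUC replicate 1, 6 without shLUC replicate 2).

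The difference changed sign for SOX2 H3K4me1 as titled (2.62), at 5 kb (4.97) and by the number among the 20000 strongest (0.25 summits), for NANOG H3K27ac as titled (-6.16) and at 50 kb (-2.1), for SALL4 as titled (13.06), and for L1TD1 as titled (3.94) and by the number among the 20000 strongest (0.75 summits). The cause was not tested. The replicate block gave 1 gene for H3K4me1 (23.1% of all genes) and 4 for H3K27ac (21.2%), with 0.111 as its smallest exact permutation p, and the repeat numbers share only a number. The unknown depth and 2 shLUC libraries limit every comparison.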
